A study of Mus musculus with 6 samples.

Results

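The septins measured here were the 10 cytoskeletal GTPases Septin2 to Septin11, which the platform annotation assigned to 28 of the 45101 probe sets on the arrays. A probe set is a group of short probes read together as 1 signal, and each one was analysed on its own. The family was selected on earlier results of these same arrays, in which Septin10 stood among the largest falls, and its members were then taken by annotation whatever their values. Folds and adjusted p-values below therefore describe where each septin lies in this comparison and support no statement about the family. The RNA was that of CAD cells, which are mouse neuroblastoma cells with features of catecholaminergic neurons, in 2 groups of 3 biological replicates. One group had received RI vector, an empty plasmid, and the other RIPmiR-124a-2, a plasmid expressing the microRNA precursor miR-124a-2. Both groups were the same line under the same culture and had been transfected, and the time after transfection and the share of cells reached are not given in the sources used here. The comparison asks which transcripts change when miR-124, a microRNA enriched in the nervous system, is supplied to cells of neuronal lineage.

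Septins bind GTP and join through alternating interfaces into rods and then into filaments, rings and cages beneath membranes and along actin and microtubules. They fall into sequence groups, the SEPT2, SEPT3 and SEPT6 groups and Septin7, and members of 1 group can stand in for each other in the rod. Septins act as scaffolds and diffusion barriers in cytokinesis, and in neurons they lie at the base of dendritic spines and at axon branch points. MicroRNAs such as miR-124 pair through their seed with target transcripts and lower them, and miR-124 is known to lower the splicing repressor Ptbp1.

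Signals ran from 2.59 to 14.39 on the log2 scale, and the highest value of 3 probe sets that read a bacterial control not usually spiked in (the unadded control) was 3.70. Of 9 markers of catecholaminergic neuronal cells, 8 exceeded that value on all arrays, and the 9th, the vesicular monoamine transporter gene Slc18a2, ran from 3.70 to 4.16. Their summed log2 signal was 77.34 to 77.83 in the empty vector arrays and 79.63 to 80.32 in the miR-124a-2 arrays, and none of the 9 passed the test. Of 13 measured markers of astrocytes, oligodendrocytes, fibroblasts, leukocytes and endothelium, 9 exceeded the control value on all arrays (Mog, Ptprc, Itgam and Cdh5 did not), but the highest value on any array was 5.32 and none passed the test. Their summed log2 signals overlapped between the groups in 4 of the 5 lists and were 8.48 to 8.62 against 8.64 to 9.18 for the 2 endothelial markers. The part of these marker levels in the septin results was not tested. The arrays also differed across groups: empty vector replicate 1 and miR-124a-2 replicates 1 and 2 had narrow interquartile ranges of 3.06 to 3.10, and the other 3 had wide ones of 3.26 to 3.35. The spiked-in poly-A transcripts had a mean signal of 5.97 and 5.96 with replicate 1 of the miR-124a-2 and empty vector groups, against 5.57 to 5.71 on the other 4 arrays. Control probe sets for the transferrin receptor gave a 3′ less 5′ log2 signal of 1.55 and 1.34 on those replicate 1 arrays. It was 0.95 to 1.09 on the other 4, and its part in the septin results was not tested. The narrow values below rest on 1 empty vector array, and the wide values on 1 miR-124a-2 array.

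Of the 28 septin probe sets, 25 averaged above the unadded control in at least 1 group, and the other 3 were tested too. Among the 28, 1 fell (a Septin10 probe set), 1 rose (a Septin6 probe set) and 26 did not pass at an adjusted p under 0.05 in limma. Over all 45101 probe sets, 0.208% fell and 0.0599% rose, counts of 94 and 27. The values of the groups did not overlap for 6 septin probe sets that were lower and 3 that were higher with miR-124a-2, against 6.96% and 6.27% of all probe sets. The median log2 fold change was 0.0055 over the septins, with 15 above and 13 below 0, and 0.0023 over all probe sets. The calls thus went in opposite directions, and 16 of the 28 probe sets, with 7 of the 9 non-overlapping ones, belonged to the SEPT6 group (Septin6, Septin8, Septin10 and Septin11). The call count changed when 1 array was left out, which also leaves fewer arrays to fit. It was 0 without any 1 of the empty vector replicates or miR-124a-2 replicate 1 or 2. In those fits 8 to 10 septin probe sets had an unadjusted p under 0.05 in limma. Without miR-124a-2 replicate 3 the count was 5. Why it changed was not tested. Over all probe sets the count was 0 in the same 4 fits without empty vector replicate 1, 2 or 3 or miR-124a-2 replicate 1, 12 without miR-124a-2 replicate 2 and 352 without replicate 3 of that group (2309 to 5514 at an unadjusted p under 0.05). With the array set (narrow or wide) as a block, 2 septin probe sets rose and 3 fell, against 0.439% and 0.690% of all probe sets.

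**Figure D1:**
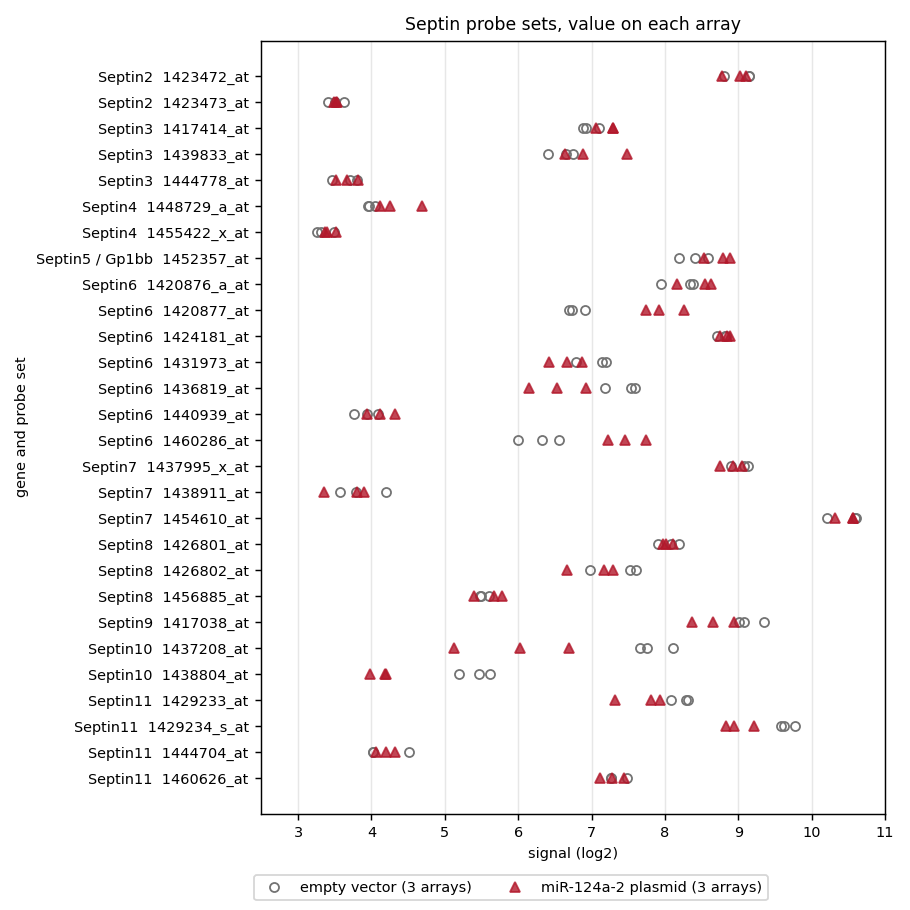
Log2 signal (x axis) of the 28 septin probe sets (y axis, gene and probe set), with an open circle for each of 3 empty vector arrays and a triangle for each of 3 miR-124a-2 arrays. The triangles lie apart from the circles on the lower side for both Septin10 probe sets and on the higher side for 1420877_at and 1460286_at of Septin6.

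Septin10, a SEPT6-group septin, had the lowest log2 fold change of all 45101 probe sets in its brighter probe set, 1437208_at. The signal was 8.11, 7.75 and 7.66 in empty vector replicates 1 to 3 and 6.03, 5.12 and 6.69 in miR-124a-2 replicates 1 to 3. All 3 miR-124a-2 arrays lay below all 3 empty vector arrays, but they spread more widely (SD 0.79 against 0.23, n = 3 each). The log2 fold change was -1.90 ± 0.34 (SE), or 3.72-fold lower, and it did not pass over all probe sets (adjusted p = 0.0920, from 0.0154 to 0.430 over 20 alternatives). The difference was -2.53 among the narrow arrays and -1.02 among the wide ones, and -2.08 between the replicate 1 arrays against -1.80 in the other 4. Leaving out 1 array moved it from -2.27 (without miR-124a-2 replicate 3, adjusted p = 0.0154) to -1.48 (without miR-124a-2 replicate 2). In all, 6 of the 20 alternatives passed, counting the mean of both Septin10 probe sets, which is not a value of 1437208_at alone. With all probe sets and arrays kept, these were the replicate number as a block (adjusted p = 0.0314) and an intensity trend (0.0434, or 0.0390 in a robust fit). The others that kept all arrays were 1 probe set per gene (0.0437) and the mean of the gene's probe sets (0.0220), where fewer features are tested. Fewer cells with the transcript and less of it per cell cannot be told apart in such bulk RNA.

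The dimmer Septin10 probe set, 1438804_at, was the septin probe set that passed as lower. Its signal was 5.61, 5.47 and 5.19 with the empty vector and 4.19, 3.98 and 4.20 with miR-124a-2, the latter close to the unadded control value of 3.70. It fell by 1.30 ± 0.13 (log2, SE; adjusted p = 0.0180, from 0.00602 to 0.244 over 18 alternatives), or 2.47-fold. Among narrow arrays it differed by -1.53 and among wide arrays by -1.13. It passed in 1 of 6 fits that left out an array, without miR-124a-2 replicate 3 (adjusted p = 0.0147), and lay between -1.42 and -1.21 in all 6. Both Septin10 probe sets were therefore lower in every miR-124a-2 array than in any empty vector array.

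The 5 probe sets below followed the brighter Septin10 probe set most closely across the 6 arrays, by the root mean square difference of values centred on their own mean, among 20195 probe sets of above-median signal. They were a pair for Vamp3, a SNARE protein of endosomal vesicles (0.33 each), 1 for the copper transporter gene Atp7a (0.33), 1 for Wasf2, an activator of branched actin assembly (0.34), and 1 for the laminin chain gene Lamc1 (0.34). Their log2 fold changes were -1.89 and -1.88 for Vamp3, -1.28 for Atp7a, -1.65 for Wasf2 and -1.45 for Lamc1. Atp7a and Lamc1 did not pass in limma (adjusted p = 0.178 and 0.0554). This measure takes in the spread among the miR-124a-2 arrays as well as the difference between groups. A probe set close to one with so large a fall has to fall too, so the list is a description with no test.

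Septin11, a SEPT6-group septin found at dendritic spines and GABAergic synapses, differed between its probe sets. The signal of 1429234_s_at was 9.57, 9.62 and 9.77 with the empty vector and 9.00 ± 0.20 (SD, n = 3) with miR-124a-2, in single arrays 8.95, 8.84 and 9.22. That of 1429233_at was 8.08, 8.28 and 8.31 against 7.32, 7.82 and 7.94. In both, every miR-124a-2 array lay below every empty vector array, although neither passed (log2 fold changes -0.66 ± 0.12 and -0.53 ± 0.17, adjusted p = 0.0999 and 0.354). For 1429234_s_at, 7 of 20 alternatives passed (adjusted p from 0.0267 to 0.458), the array set as a block among them (-0.58, adjusted p = 0.0409). The remaining pair overlapped between groups, with log2 fold changes of -0.06 for 1460626_at and 0.01 for 1444704_at, and both differed in sign between the narrow (-0.29 and -0.32) and wide arrays (0.17 and 0.18). A suffix _s_at marks a set whose probes can match several transcripts.

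The sequences upstream of Septin10 and Septin11 are shown because these are the members with more than 1 probe set lower without overlap. RefSeq promoter windows on GRCm38.p6 were held for 7 of the 10 septins, and the 250 bases before the annotated start are printed 5′ to 3′ on the gene's strand. Capitals mark matches on either strand to the GC box GGGCGG, the E-box CACGTG, the CCAAT box or the TATA box TATAAA.
Septin10, chr10:59221501-59221750, minus strand: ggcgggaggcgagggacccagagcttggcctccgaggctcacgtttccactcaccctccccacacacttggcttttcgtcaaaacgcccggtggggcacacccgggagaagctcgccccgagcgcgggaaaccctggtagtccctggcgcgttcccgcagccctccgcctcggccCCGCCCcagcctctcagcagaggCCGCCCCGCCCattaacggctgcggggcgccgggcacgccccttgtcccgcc
Septin11, chr5:93093166-93093415, plus strand: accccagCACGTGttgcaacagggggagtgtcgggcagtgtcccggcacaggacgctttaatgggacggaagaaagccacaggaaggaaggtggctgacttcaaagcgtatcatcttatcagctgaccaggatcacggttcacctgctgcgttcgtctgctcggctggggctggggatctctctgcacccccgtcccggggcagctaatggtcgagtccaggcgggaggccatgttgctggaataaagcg
The Septin10 window held 3 GC boxes, a pair of which share 1 base, and had 26 CpG dinucleotides and 72.4% G and C. The Septin11 window held 1 E-box, 15 CpG dinucleotides and 60.0% G and C. Of 32851 promoter windows of the same length, 32.7% held a GC box and 6.02% an E-box, while 33.8% held a CCAAT box and 12.4% a TATA box, which neither window held. The median window had 6 CpG dinucleotides. These matches describe letters only, and the arrays carry no measure of promoter activity.

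Septin6, the SEPT6-group member of the canonical septin rod, was measured by 7 probe sets that differed in direction. The signal of 1420877_at was 6.69, 6.73 and 6.91 with the empty vector and 7.74, 7.92 and 8.25 with miR-124a-2. It rose by 1.19 ± 0.14 (log2, SE; adjusted p = 0.0266), or 2.28-fold, the difference being 1.13 among narrow and 1.43 among wide arrays. Over 19 alternatives the adjusted p ran from 0.00558 to 0.600. The 0.600 belongs to the mean of the 7 Septin6 probe sets. For this probe set itself the highest was 0.244, with replicates 2 and 3 alone. Every miR-124a-2 array was above every empty vector array. With 1 array left out the log2 fold change lay between 1.05 and 1.31, and it passed only without miR-124a-2 replicate 3 (adjusted p = 0.0154). It did not pass with each array centred on its median (adjusted p = 0.0621).

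The second such Septin6 probe set, 1460286_at, differed between the groups by nearly the same amount. Its signal was 6.00, 6.32 and 6.56 with the empty vector and 7.22, 7.46 and 7.74 with miR-124a-2, again without overlap. The log2 fold change was 1.18 ± 0.18 (SE) and lay just outside the threshold (adjusted p = 0.0530). It passed in 9 of 19 alternatives, the array set as a block among them (1.32, adjusted p = 0.00558), but in none of the 6 fits that left out an array. The narrow arrays gave 1.34 and the wide arrays 1.30, so these 2 values were closer than for Septin10.

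Another Septin6 probe set went the other way. The signal of 1436819_at was 7.18, 7.60 and 7.54 with the empty vector and 6.53, 6.14 and 6.92 with miR-124a-2, every miR-124a-2 array being lower. Its log2 fold change was -0.91 ± 0.20 (SE) and did not pass (adjusted p = 0.155), but did so when array set was blocked (-0.74, adjusted p = 0.0394) and without miR-124a-2 replicate 3 (-1.10, adjusted p = 0.0388). Narrow arrays gave -0.85 and wide arrays -0.64.

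Array by array, the log2 signal of 1420877_at less that of 1436819_at, both of Septin6, was -0.49, -0.87 and -0.63 with the empty vector and 1.21, 1.77 and 1.33 with miR-124a-2. This pair was picked after its values were seen, and the shift of 2.10 is the difference of the fold changes given above, so it is a description with no test. Which exons or 3′ ends each probe set reads was not analysed here.

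**Figure D2:**
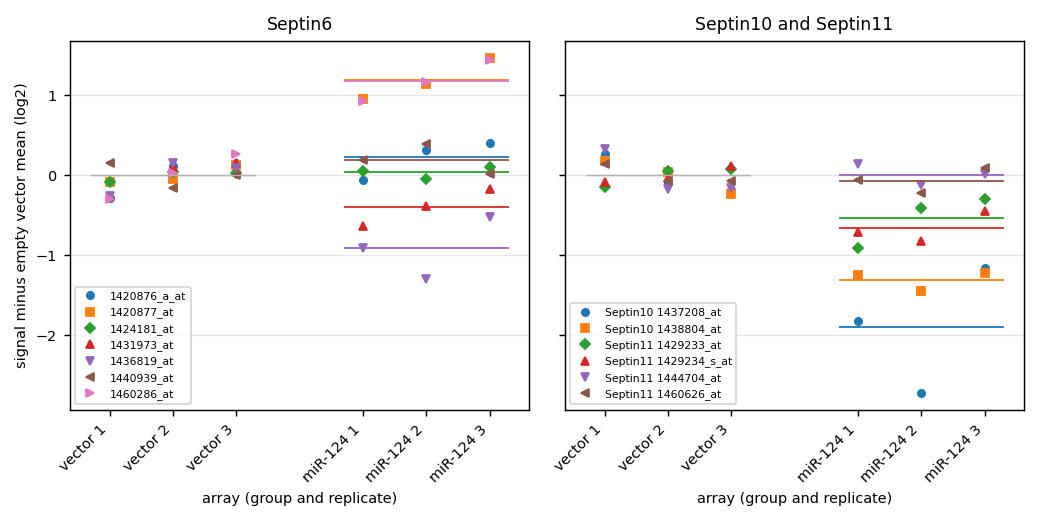
Log2 signal less the empty vector mean of each probe set (y axis) on the 6 arrays (x axis, group and replicate), for the 7 probe sets of Septin6 at left and the 2 of Septin10 and 4 of Septin11 at right, with lines at group means. At left, a pair of probe sets sit near 1.2 and another near -0.9 in the miR-124a-2 arrays, and at right the Septin10 probe sets average -1.90 and -1.30.

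The other 4 Septin6 probe sets overlapped between groups. The log2 fold change was 0.23 for 1420876_a_at, 0.04 for 1424181_at, 0.20 for the dim 1440939_at and -0.39 for 1431973_at (adjusted p from 0.550 to 0.974). The brightest of the 7, 1424181_at, was 8.71 to 8.83 with the empty vector and 8.75 to 8.89 with miR-124a-2. The mean of the 7 probe sets changed by 0.22 and did not pass (adjusted p = 0.600), so an average over the gene shows neither difference.

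Septin8, the fourth SEPT6-group member and a binding partner of the vesicle protein VAMP2, had 3 probe sets, all overlapping between groups. The signal of 1426801_at was 7.90 to 8.19 with the empty vector and 7.97 to 8.11 with miR-124a-2 (log2 fold change -0.03 ± 0.11, SE). The log2 fold change was -0.33 ± 0.21 for 1426802_at and 0.09 ± 0.12 for 1456885_at. The SEPT6 group thus held probe sets near 0 beside those whose groups did not overlap.

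Septin7, the septin with no close paralog in the rod, overlapped between groups in all 3 probe sets. Its brightest, 1454610_at, was 10.21, 10.59 and 10.60 with the empty vector and 10.32, 10.56 and 10.56 with miR-124a-2. In both groups replicate 1 was the lowest. The log2 fold changes were 0.01 ± 0.14 for this probe set, -0.13 ± 0.11 for 1437995_x_at and -0.16 ± 0.19 (SE) for the dim 1438911_at, with -0.61 among narrow and 0.22 among wide arrays. A suffix _x_at marks probes that can also match other transcripts.

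In the SEPT3 group, Septin9, which associates with actin filaments and microtubules, had 1 probe set. The signal of 1417038_at was 9.35, 9.00 and 9.07 with the empty vector and 8.94, 8.37 and 8.66 with miR-124a-2. Every miR-124a-2 array was lower, the nearest pair being 9.00 and 8.94, and the log2 fold change of -0.49 ± 0.16 (SE) did not pass (adjusted p = 0.405). Septin3, a septin of neurons found at presynaptic terminals, had 3 probe sets, all with overlapping groups. The signal of 1439833_at was 6.41, 6.65 and 6.75 against 6.89, 6.64 and 7.49, and that of 1417414_at 6.93, 6.88 and 7.10 against 7.06, 7.29 and 7.29. Their log2 fold changes were 0.40 ± 0.21 and 0.25 ± 0.11 (SE, adjusted p = 0.717 and 0.629), and 1444778_at averaged below the unadded control in both groups.

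In the SEPT2 group, no probe set passed. Septin2, which forms the rod with Septin6 and Septin7, had a signal of 8.81, 9.14 and 9.15 with the empty vector and 8.77, 9.02 and 9.11 with miR-124a-2 in 1423472_at (log2 fold change -0.07 ± 0.14, SE). Its other probe set, 1423473_at, was 3.40 to 3.63 on all 6 arrays, below the unadded control. Septin5, a presynaptic septin that binds syntaxin, was read only by 1452357_at, which the annotation assigns to both Septin5 and the neighbouring platelet gene Gp1bb. That shared probe set was 8.19, 8.41 and 8.58 with the empty vector and 8.53, 8.79 and 8.89 with miR-124a-2, overlapping between groups (log2 fold change 0.35 ± 0.14, adjusted p = 0.555). Septin4, a septin with a proapoptotic isoform, was dim: 1448729_a_at was 3.96, 4.06 and 3.96 against 4.26, 4.69 and 4.11, higher in every miR-124a-2 array (log2 fold change 0.36 ± 0.15, adjusted p = 0.574), and 1455422_x_at averaged below the unadded control in both groups.

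**Figure D3:**
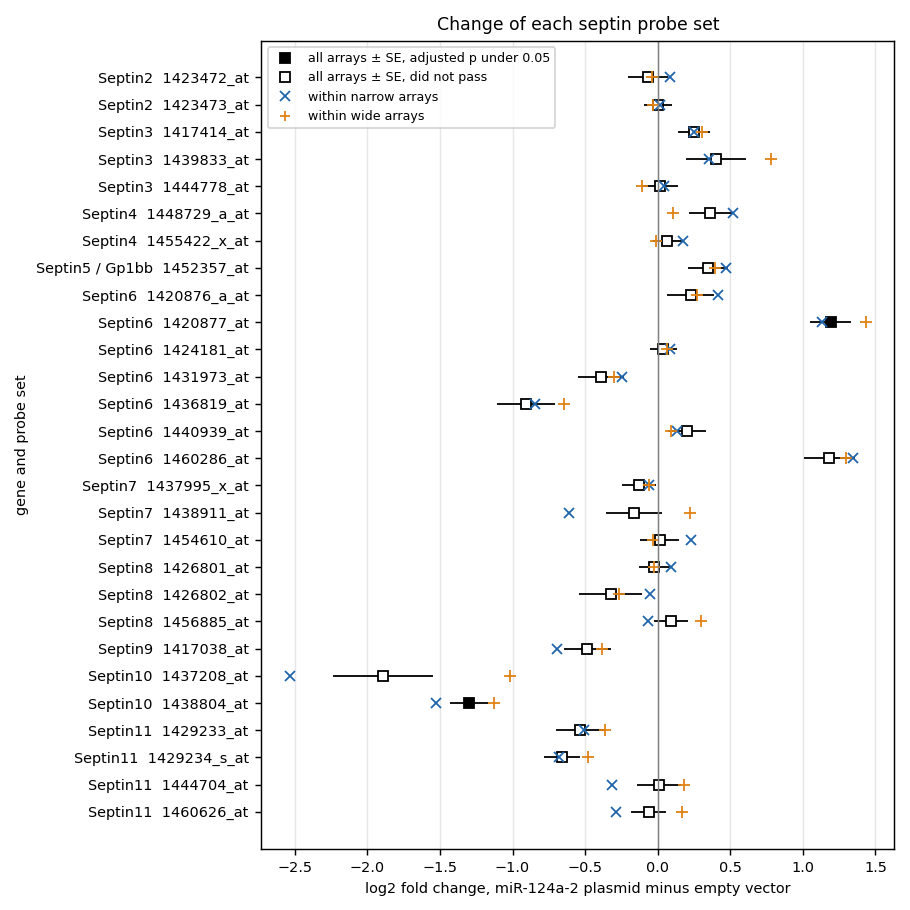
Log2 fold change (x axis, miR-124a-2 plasmid minus empty vector) of the 28 septin probe sets (y axis), as squares with the standard error, filled where the adjusted p was under 0.05, with crosses and plus signs for the differences within narrow and wide arrays. The filled squares are 1420877_at of Septin6 at 1.19 and 1438804_at of Septin10 at -1.30, and the narrow and wide values of 1437208_at stand at -2.53 and -1.02.

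Septin1, Septin12 and Septin14, which are mainly of blood cells or testis, had 4 probe sets that all overlapped between groups, with log2 fold changes of -0.04 to 0.24. The partner list held 21 genes that bind or work with septins, among them the small GTPase Cdc42, its septin-binding Borg effectors, anillin and nonmuscle myosins. Of its 55 probe sets, 1 rose and none fell, beside 0.0599% and 0.208% of all probe sets. An unadjusted p under 0.05 in limma was found for 11 of the 55, against 8.18% of all probe sets. The groups did not overlap for 6 of the 55 that were higher and 4 that were lower with miR-124a-2, beside the 6.27% and 6.96% of all probe sets given above. The median log2 fold change of these 55 was -0.01. The 1 that rose, 1435807_at of Cdc42, was 5.40, 5.70 and 5.50 with the empty vector and 6.91, 6.65 and 7.30 with miR-124a-2 (log2 fold change 1.42 ± 0.17, SE, adjusted p = 0.0257, and 0.00558 when blocked on array set). Like every call over these arrays, it was lost without any 1 empty vector replicate or miR-124a-2 replicate 1. The other 3 Cdc42 probe sets overlapped between groups, with log2 fold changes of -0.06, 0.03 and 0.10.

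A partner probe set singled out after its values were seen, 1437855_at of the microtubule-associated protein gene Map4, had the highest log2 fold change of all 45101 probe sets. Its signal was 4.15 ± 0.14 (SD, n = 3) with the empty vector, at most 4.27, and 5.49, 5.37 and 6.34 with miR-124a-2, without overlap. The log2 fold change of 1.58 ± 0.24 (SE) lay just outside the threshold (adjusted p = 0.0537), and blocking on array set took it past (1.77, adjusted p = 0.00558). It was 1.43 among narrow and 2.12 among wide arrays. The other 4 Map4 probe sets overlapped between groups, with log2 fold changes of 0.02 to 0.27.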

How the data were processed

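Total RNA (6 ug per array) was labelled with biotin after Trizol extraction, per the labels' protocols. The authors' deposited log2 expression values, 1 for each probe set on each array, come from RMA according to the submitters' processing notes. The RMA version, its probe definitions and filters are not given in the sources used here. The values were used as deposited, for all 45101 probe sets on 6 arrays. Arrays give no read depth, and their number limits precision.

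Gene names are those of the 2016 platform annotation, which gave 34958 probe sets 1 gene, 932 several and left 9211 unlisted. The two-sided comparison of the groups used limma 3.58.1 (lmFit, then eBayes, without a block) under R 4.3.3, and p-values were adjusted by Benjamini-Hochberg over all probe sets at a threshold of 0.05, after the code was tested on simulated data. Whether replicates were separate cultures is not stated beyond "biological", so p-values measure the spread between these arrays. Array sets were divided at the largest gap in interquartile range or in poly-A control signal. Every probe set of Septin2 to Septin11 was named. Values of partner genes were to be given where they passed. Map4, which did not pass, was added after its values were seen. For the brightest Septin10 probe set, 5 probe sets of like pattern were taken. The members, lists, alternatives and array sets were chosen with earlier results of these data known. Alternatives were the replicate number or an array set as a block, leaving out arrays, other scalings, a filter on dim probe sets, intensity trends, other rules for probe sets and stricter thresholds. Matches of miR-124 to 3′ untranslated regions were not analysed here.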

Additional observations from a re-analysis of the deposited data

How the results depend on the processing

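The count of septin probe sets that passed (2 of 28) and that of all probe sets (121) depended on the setting. With the replicate number as a block they were 5 and 673, and these included the 2 and the 121. The replicate numbers were not taken as a pairing in the main fit. Deviations of same-numbered arrays from their group means correlated at 0.58, 0.03 and 0.56, and not every array correlated best with its own number. Arrays of different numbers correlated at -0.60 to 0.34. Whether arrays of 1 number share an effect was not tested. The counts were 5 and 509 with the array set as a block, 339 over all probe sets with the poly-A set as a block, 4 and 262 with quantile normalization, 4 and 244 with cyclic loess, 5 and 215 with an intensity trend and 5 and 229 with a robust one. They were 1 and 39 with arrays centred on their median, and 0 and 0 with replicates 2 and 3 alone in limma (11 and 3732 at an unadjusted p under 0.05) or at an adjusted p under 0.01 (11 and 3688). Requiring at least 2-fold left 61 probe sets in all. With 1 probe set per gene, 1 of 9 septins passed, Septin10, beside 165 of all 18194 genes. With the mean of the probe sets of a gene, 1 of 9 passed, again Septin10, beside 110 of 18194. Leaving out 1 array gave 0 to 5 septin probe sets and 0 to 352 in all. The causes were not tested. For septin probe sets, 531 fold changes were listed under alternatives. In 1 of these settings the mean of a gene stood for each of its probe sets, and the stricter threshold left fold changes as they were. Of the 531, 16 lost and 24 gained a call, and none that passed in either fit changed direction. Direction was compared only for those. Another 10 that passed in neither fit moved by at least the pooled within-group SD. Among them was 1436819_at of Septin6, from -0.91 to 0.22 where the gene mean stood for it. Probe sets near the unadded control level carry little signal to compare.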
